A study of Arabidopsis thaliana with 8 samples.

Results

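Lipid transfer protein genes of Arabidopsis were followed in shoots grown with a synthetic brassinosteroid and then heated. The 5 genes were LTP4 (AT5G59310), LTP3 (AT5G59320), LTP2 (AT2G38530), AT2G37870 and EARLI1 (AT4G12480). Each was taken by its locus in the authors' deposited tables of fold changes, which list 733 of the array's 22746 probe sets, and its probe set was then looked up in the series' value table. All 5 loci were found, each with 1 probe set. They were chosen because EBR to control ratios in these same data were high, so these ratios are given as a description, with no test. LTP4, LTP3, LTP2 and EARLI1 are listed in all 4 of the authors' tables, and AT2G37870 in 3, since it is not listed at 3 h.

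Seedlings of the Columbia ecotype were grown for 21 days with 1 µM 24-epibrassinolide (EBR, a brassinosteroid analogue) or with 0.01% ethanol as control. Shoots above the medium were taken before stress (0 h), after 1 h or 3 h at 43°C, and once heated plants had spent 6 h at 22°C (recovery). Each of the 8 groups, 2 arms at 4 stages, has 1 sample, which the labels describe as 3 biological replicate ATH1 arrays, with at least 30 seedlings pooled. The arrays' own values were not used here, so no stage has a p-value, and precision is limited by how many arrays there were. The tissue could not be checked against its markers, since the authors' tables name none of 7 epidermis, 6 guard cell, 4 mesophyll, 6 root and 3 vascular marker genes. They name 1 of 8 flower markers, PI (AT5G20240), whose log2 EBR to control ratio lay between -0.94 and -0.67 over the stages. In bulk shoots, a change in the share of a cell type cannot be told apart from a change of RNA per cell.

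Plant lipid transfer proteins are small, secreted, cysteine-rich proteins whose fold encloses a hydrophobic cavity that binds fatty acids and other lipids. They are abundant in the epidermis and cell wall, where they have been linked to cuticle formation, and many of their genes are known to respond to abscisic acid, drought, cold or pathogens. LTP2, LTP3 and LTP4 belong to the classical family, and EARLI1 is a hybrid proline-rich member related to the systemic immunity protein AZI1. In the RefSeq gene table LTP4 and LTP3 are neighbouring protein-coding genes, LTP2 lies next to LTP1 (AT2G38540, listed there as LP1), and EARLI1 next to AZI1. The authors' table carries the GO term lipid transport for all 5 loci, and a response to abscisic acid for LTP3 and LTP4 but not for the other 3. Close relatives can share signal on an array, and whether the LTP3 and LTP4 probe sets do so was not tested.

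In unstressed shoots all 5 genes had higher signals with EBR. Values in the series' value table are linear ratios to control, and each EBR value was divided by the control value of its stage. For LTP4 these columns were 13.4 and 0.796, a log2 ratio of 4.07. For LTP3 they were 9.15 and 0.771, a log2 ratio of 3.57. LTP4 held rank 1 and LTP3 rank 3 of all probe sets at 0 h. LTP2 had a log2 ratio of 2.84 and AT2G37870 one of 2.57, at ranks 7 and 8. EARLI1 had a log2 ratio of 0.72 at rank 443 and was the 1 member under 2-fold, so 4 of 5 members were at least 2-fold higher, where 0.95% of all probe sets were.

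After stress the ratios of AT2G37870 and EARLI1 took opposite courses up to 3 h, while the order of LTP3 and LTP4 depended on the source. In the value table LTP4 had log2 ratios of 3.63 after 1 h, 3.20 after 3 h and 2.97 at recovery. LTP3 had 3.93, 3.33 and 3.16, higher by less than its approximate errors given below. Both lay among the 3 highest ratios of the array at every stage. By the authors' normalized log2 means LTP4 stood above LTP3, with 4.03 against 3.76 at 1 h and 3.48 against 3.15 at 3 h. Their mean signals put LTP4 higher at 1 h and LTP3 higher at 3 h. The values that follow are again those of the value table. LTP2 had 2.31, 2.65 and 1.55, with ranks of 9, 9 and 16. AT2G37870 had 1.39, 0.91 and 1.59, so its ratio was highest before stress and lowest after 3 h, when it stood at rank 230. EARLI1 had 1.54, 2.89 and 1.06, so its ratio was lowest before stress and highest after 3 h, when it stood at rank 6. At least 2-fold higher were 5 of 5 members after 1 h (0.677% of all probe sets), 4 of 5 after 3 h (0.818%) and 5 of 5 at recovery (0.585%). LTP4, LTP3 and LTP2 passed 2-fold at every stage, as did 0.106% of all probe sets. None of these shares says anything about the members beyond how they were chosen. As a measure of RNA integrity, the 3' to 5' signal ratio of 4 pairs of array control probe sets was compared between arms. After 1 h it was higher in EBR in all 4 pairs, by log2 values of 0.29 to 0.57, and at recovery it differed by -0.47 to -0.08. At 0 h it differed by -0.15 to 0.25, with 1 pair higher in EBR, and after 3 h by -0.30 to 0.06, with 2 pairs higher. Its part in the members' ratios was not tested.

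Averaged over stages, LTP3 had a log2 ratio of 3.50 ± 0.33 (SD over n = 4 stages), LTP4 one of 3.47 ± 0.49 and LTP2 one of 2.34 ± 0.57. AT2G37870 had 1.61 ± 0.70 and EARLI1 1.55 ± 0.95. The means of LTP3 and LTP4 differed by less than the spread of either over the stages, and so did those of AT2G37870 and EARLI1. In the value table the lowest LTP4 and LTP3 ratios lay above the highest LTP2 ratio, which the authors' tables do not show, since LTP2 had 3.43 there at 1 h by normalized log2 means and LTP3 had 3.15 at 3 h. The SD over stages had a median of 0.144 over all probe sets. All 5 members therefore had a larger SD over stages than most of the array. They were chosen for high ratios, so this may follow from that choice and is not a separate trait of theirs. EARLI1 had the widest range of the 5, 2.16 on the log2 scale.

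**Figure D1:**
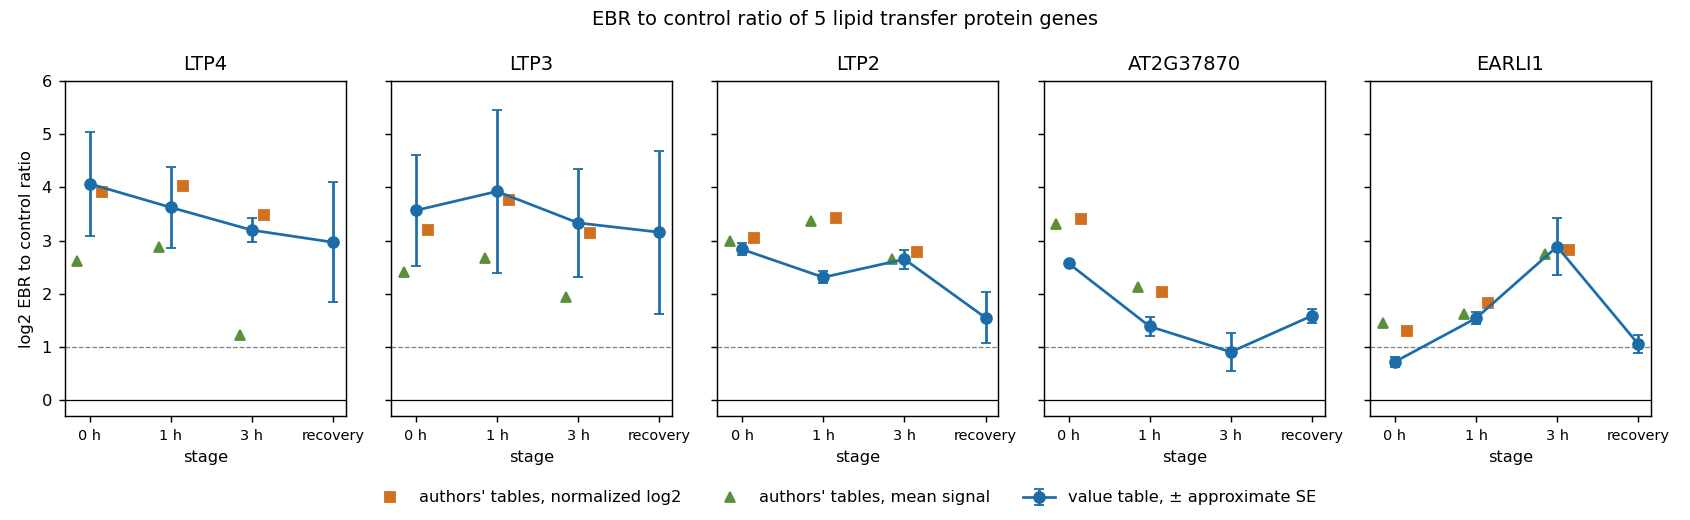
Log2 EBR to control ratio (vertical axis) of each gene at the 4 stages (horizontal axis). Circles are the value table with bars of 1 approximate standard error, squares and triangles are the normalized log2 means and the mean signals of the authors' deposited tables, and the dashed line marks 2-fold. The bars of LTP3 are the widest at every stage, up to 1.53, while that of LTP4 at 3 h is 0.219 and may be far too small. The triangles of LTP4 and LTP3 lie below the squares at each of the 3 listed stages.

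How well replicate arrays agreed could be read only indirectly. By that reading LTP3 at every stage, and LTP4 at all but 3 h, varied more between control arrays than the other members at any stage. The low LTP4 value at 3 h is in doubt, since the authors' 2 readings of LTP4, given below, lay farthest apart there. No control column of the value table exceeds 1, and its distance below 1 was read as the shortfall of a geometric from an arithmetic mean over the 3 control arrays. That reading, an inference, gives a rough SD over the control arrays on the log2 scale. For LTP3 the control column was 0.572 after 1 h, the lowest of all 22746 probe sets, and 0.571 at recovery, where 2 probe sets were at or below it. For LTP4 it was 0.737 at recovery, where 4 probe sets were at or below it. The approximate control SD of LTP3 was 1.27, 1.87, 1.23 and 1.87 at 0 h, 1 h, 3 h and recovery. That of LTP4 was 1.19, 0.924, 0.268 and 1.38. The median over all probe sets was 0.0957 to 0.107. LTP2 lay between 0.137 and 0.589, AT2G37870 between 0.0364 and 0.442, and EARLI1 between 0.12 and 0.658. If EBR arrays varied like control arrays, the standard error of the log2 ratio was 1.53 for LTP3 after 1 h, against a ratio of 3.93, and 1.13 for LTP4 at recovery, against 2.97. The 4 stage ratios of LTP3 lay within 0.77 of each other and those of LTP4 within 1.10, about the size of these errors. For EARLI1 the errors were 0.0979 at 0 h and 0.538 at 3 h, where the ratios differed by 2.16. For AT2G37870 they were 0.0297 and 0.361, and the ratio was 1.67 lower at 3 h. Its mean control signals were low, 19.8 at 0 h and 10.7 at 1 h, and none is listed at 3 h. How far low signal shaped these errors and the course of the ratio was not tested.

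The authors' deposited tables hold 2 further readings of the same arrays, mean signals on a linear scale and normalized log2 means. At 0 h the authors' tables gave LTP4 mean signals of 595.6 in control and 3644 in EBR, and LTP3 signals of 1510.2 and 8006. LTP2 had 235.9 and 1886, AT2G37870 19.8 and 197, and EARLI1 124.4 and 339.8. EBR was above control in every gene, and the AT2G37870 control signal was low, with 3.55 the lowest and 41.4 the median control signal listed at that stage. The authors' deposited fold at 0 h, which rests on the normalized log2 means, was 15.2 for LTP4, 9.24 for LTP3, 8.23 for LTP2, 10.6 for AT2G37870 and 2.46 for EARLI1. The fold of the mean signals was 6.12 for LTP4 and 5.30 for LTP3, against 8.0 for LTP2, 9.96 for AT2G37870 and 2.73 for EARLI1. By normalized log2 means LTP4 stood first and AT2G37870 second of the 5, and by mean signals AT2G37870 stood first and LTP2 second.

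In heated shoots the 2 readings of LTP4 were slightly closer after 1 h and farthest apart after 3 h. After 1 h the LTP4 mean signals were 244.3 and 1802 (7.38-fold), against 16.3-fold from the normalized log2 means in the authors' table. After 3 h they were 324.3 and 763.2, 2.35-fold against 11.2-fold. LTP3 had 304.9 and 1942 after 1 h (6.37-fold against 13.5-fold) and 258.5 and 986.9 after 3 h (3.82-fold against 8.88-fold). For LTP2 the 2 readings were close, 10.3-fold and 10.7-fold after 1 h from signals of 92.1 and 950.5, and 6.28-fold and 6.89-fold after 3 h from 122.6 and 769.9. EARLI1 had 52.1 and 160.3 after 1 h (3.08-fold and 3.55-fold) and 50.7 and 341.6 after 3 h (6.74-fold and 7.08-fold). AT2G37870 had 10.7 and 46.7 after 1 h (4.37-fold and 4.08-fold).

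Across all listed probe sets the gap between the 2 readings had a median size of 0.0583, 0.0524 and 0.0561 on the log2 scale at 0 h, 1 h and 3 h. For LTP4 it was 1.31, 1.14 and 2.25, the largest of the 273, 239 and 256 listed probe sets. For LTP3 it was 0.80, 1.09 and 1.22, at places 4, 2 and 3. For the other members it was at most 0.21 in size. EBR was above control for every member in both readings. The 2 sources also differ for LTP4 after 3 h, where the value table gave a control column of 0.989, near 1, while the gap in the authors' table was at its widest. The approximate SD of 0.268 and standard error of 0.219 for LTP4 at 3 h may thus be far too small. Those of LTP4 at other stages and of LTP3 may be too small as well, which was not tested.

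**Figure D2:**
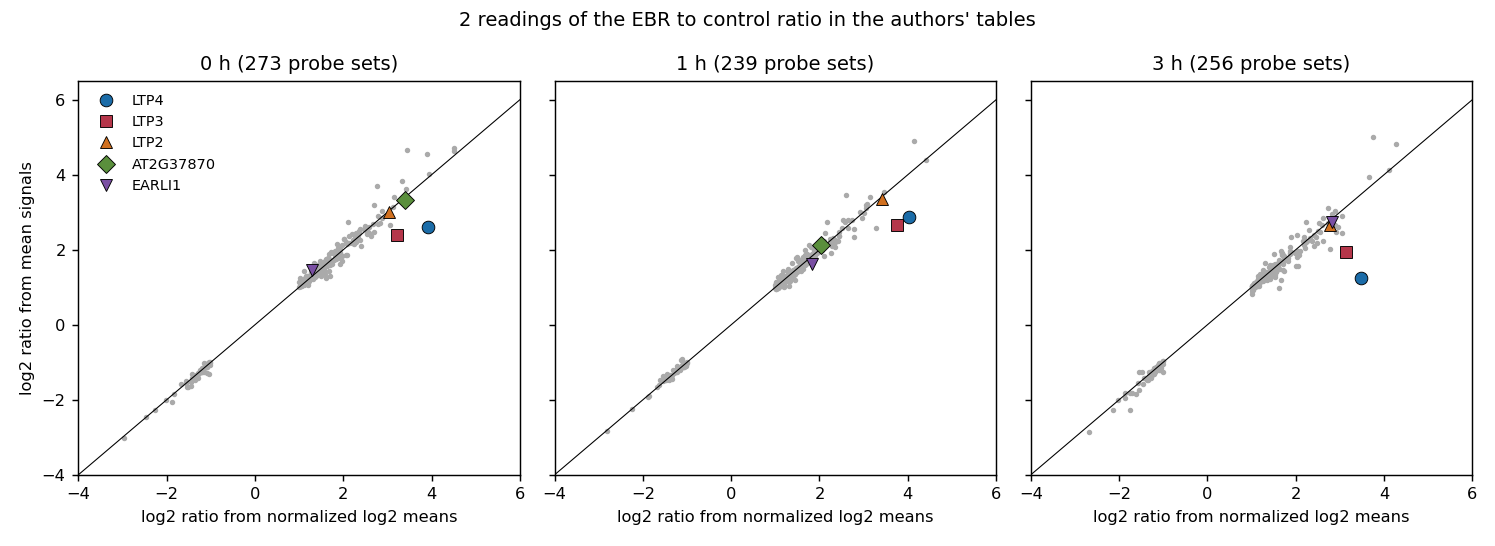
Each point is a probe set of the authors' deposited table at 0 h, 1 h or 3 h, with the log2 EBR to control ratio from normalized log2 means on the horizontal and from mean signals on the vertical axis; the line marks equality. LTP4 and LTP3 lie below the line at all 3 stages, by 2.25 for LTP4 at 3 h, while LTP2, AT2G37870 and EARLI1 lie within 0.21 of it.

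The value table and the normalized log2 means differed as well, in a way the members shared with other probe sets. Among the probe sets that the authors' tables list as higher with EBR, the table's log2 ratio exceeded that of the value table by a median of 0.57 at 0 h (210 of 214), 0.45 at 1 h (173 of 184) and 0.46 at 3 h (184 of 198). AT2G37870 had 3.40 in the authors' table against 2.57 at 0 h, and 2.03 against 1.39 at 1 h. LTP2 had 3.43 against 2.31 at 1 h. EARLI1 had 1.30 against 0.72 at 0 h, which moved it above 2-fold. LTP3 went the other way, with 3.21, 3.76 and 3.15 in the authors' table against 3.57, 3.93 and 3.33, and so did LTP4 at 0 h, with 3.92 against 4.07.

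Nearly all members had lower signals in heated than in unstressed shoots of the same arm, as read from the authors' deposited normalized log2 means, which carry no error. The comparison of heated with unstressed shoots within an arm was not what chose the members. It does share its 0 h and heated values with the EBR to control ratios that chose them. The members' heat changes are therefore not free of that choice, and their counts and medians below are a description. All listed probe sets had been selected by the authors for a treatment effect and by a 2-fold limit. Against the unstressed control a heat change could also meet that limit. The heat shares of listed probe sets may thus come from a list partly selected on heat. In control shoots the log2 change after 1 h was -2.79 for LTP3, -1.50 for LTP4, -1.49 for EARLI1, -1.39 for LTP2 and -0.66 for AT2G37870. After 3 h it was -2.90, -1.72, -1.44, -1.06 and -0.9996 in that order, and the last lay just short of 2-fold. At each time 4 of 5 members were at least 2-fold lower, where 20.5% of the 708 listed probe sets were after 1 h and 22.3% after 3 h. By the authors' mean signals the count after 3 h was 2 of the 4 members with a signal, as LTP4 had -0.88 and LTP2 -0.94. The median change of the members by normalized log2 means was -1.49 and -1.44, against -0.20 at both times over all listed probe sets. Between 1 h and 3 h the control means differed by at most 0.34 in size, so 0 of 5 members were 2-fold lower, where 1.41% of listed probe sets were.

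In EBR shoots the change after 1 h was -2.23 for LTP3, -2.03 for AT2G37870, -1.39 for LTP4, -1.01 for LTP2 and -0.96 for EARLI1. At least 2-fold lower were 4 of 5, where 24.3% of listed probe sets were. After 3 h AT2G37870 had -3.43, LTP3 -2.95, LTP4 -2.16 and LTP2 -1.31, again 4 of 5 against 27.0% of listed probe sets. EARLI1 stood at 0.09, since its EBR level was 1.05 higher after 3 h than after 1 h. Between 1 h and 3 h the EBR level of AT2G37870 differed by -1.40, the 1 member at least 2-fold lower, where 1.55% of listed probe sets were. LTP4 and LTP3 had -0.77 and -0.72 over the same interval, and LTP2 -0.31. By mean signals in the authors' tables LTP4 was also at least 2-fold lower, with -1.24.

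Set against the unstressed control, heated EBR shoots had higher levels of LTP4, LTP3, LTP2 and EARLI1 at both times by the authors' normalized log2 means, which held for 51.8% of listed probe sets. LTP4 lay at 2.53 after 1 h and 1.76 after 3 h on the log2 scale, and LTP2 at 2.03 and 1.73. LTP3 lay at 0.97 and 0.25, EARLI1 at 0.34 and 1.39, and AT2G37870 at 1.37 and -0.03. At least 2-fold above the unstressed control at both times were LTP4 and LTP2, which held for 33.3% of listed probe sets, a share close to that of the members. By the authors' mean signals the EBR level of LTP3 after 3 h was below the unstressed control, 986.9 against 1510.2. That of LTP4 was under 2-fold above it, 763.2 against 595.6, while LTP2 stayed at 2.01 after 1 h and 1.71 after 3 h on the log2 scale. By normalized log2 means the order of the 6 conditions from high to low was EBR at 0 h, 1 h and 3 h, then control at 0 h, 1 h and 3 h, for both LTP4 and LTP3. LTP2 had the same order except that control at 3 h stood above control at 1 h. For AT2G37870 the 0 h control and the EBR level at 3 h, 0.03 apart, stood between the 2 other EBR levels and the heated controls. For EARLI1 EBR at 3 h stood first, 0.09 above EBR at 0 h. With no deposited error, neighbours in these orders cannot be separated.

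**Figure D3:**
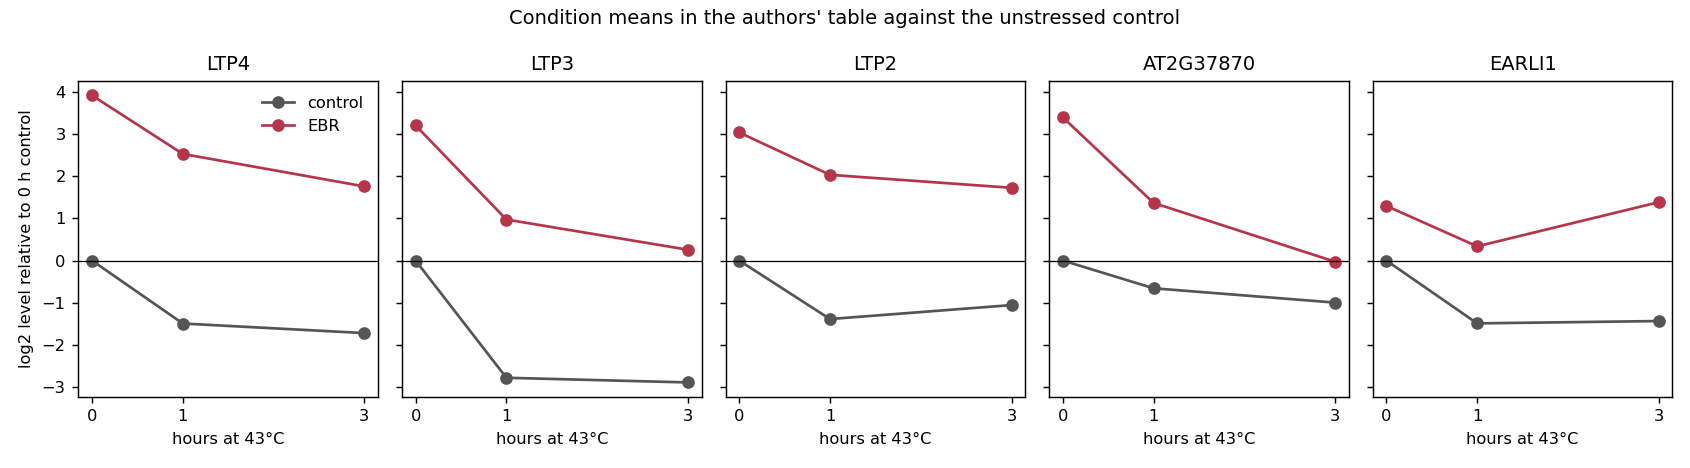
Normalized log2 level relative to the 0 h control (vertical axis) against hours at 43°C (horizontal axis) for each gene, from the authors' deposited condition means, with no error available. EBR lies above control at each time in all 5 genes, and both lines go down between 0 h and 1 h, while the EBR line of EARLI1 returns to 1.39 at 3 h and that of AT2G37870 reaches -0.03.

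Likeness of pattern was measured as the root mean square difference of log2 levels over the 6 conditions. Each gene was first centred on its own mean. Only probe sets with 1 locus that the authors list against the unstressed control were compared, so most of the array could not come up. LTP4 and LTP2 differed by 0.484, LTP4 and LTP3 by 0.540 and LTP3 and LTP2 by 0.755. The 6 conditions span both arms, so a high EBR to control ratio, for which the members were chosen, enters the pattern. Likeness between members thus partly restates that choice. Among the genes compared, LTP2 was the nearest to LTP4, with LTP3 next, and LTP4 and LTP2 were in turn the nearest to LTP3. For LTP2, LTP4 came only at place 6. EARLI1 stood at a distance of 0.726 to 1.21 from the other members and AT2G37870 at 0.809 to 1.07.

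Outside the members, 666 of these listed genes were compared. The nearest to LTP2 were KTI1 (AT1G73260), a Kunitz-type protease inhibitor gene, at 0.336, AT5G03350 at 0.369 and the sugar transporter gene SAG29 (AT5G13170) at 0.387. The same 3 genes were nearest to LTP4, at 0.716, 0.622 and 0.724. Nearest to LTP3 were PR4 (AT3G04720), a chitin-binding defence protein gene, at 0.757, the transcription factor subunit gene NF-YA2 (AT3G05690) at 0.798 and KTI1 at 0.806. AT2G37870 was nearest to NF-YA3 (AT1G72830) at 0.335, the basic chitinase gene HCHIB (AT3G12500) at 0.418 and AT5G58390 at 0.434. In the value table NF-YA3 had log2 ratios of 1.57, 0.68, 0.24 and 1.19 at 0 h, 1 h, 3 h and recovery. Like AT2G37870 it was lowest at 3 h and higher again at recovery, a stage the likeness did not use. HCHIB and AT5G58390 did not share that rise, with 0.48 and 0.35 at 3 h and 0.21 and 0.36 at recovery. KTI1 had 1.60, 1.83, 2.02 and 0.33, and so stood lower at recovery than any LTP2 ratio. EARLI1 was nearest to AT1G55265 at 0.367, AT1G19380 at 0.401 and AT2G28400 at 0.404.

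Of 31 lipid transfer and related genes listed for comparison, the authors' tables name 8, the 5 members and AT5G01870, CWLP (AT3G22120) and DIR1 (AT5G48485). The EBR effect of the other 23 was not analysed here. AT5G01870 had log2 ratios of 0.76, 1.08, 0.67 and 0.10 at 0 h, 1 h, 3 h and recovery in the value table. CWLP, a cell wall linker protein gene, had 0.22, 0.50, 0.61 and 0.44. DIR1, which encodes a lipid transfer protein needed for systemic acquired resistance, had -0.29, -0.45, -0.29 and -0.64 and was the 1 listed relative below control at every stage.

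The annotation of the tables adds 3 more probe sets, for 11 with the term lipid transport, a group chosen after its values were seen. AT3G18280 had log2 ratios between 0.54 and 1.03 over the stages and AT1G62790 between 0.34 and 0.92. The probe set shared by AT1G48750 and AT1G48760 had 0.06 to 1.06. EBR was above control at every stage in 10 of the 11, of which 5 are members, where 51.4% of the 733 listed probe sets were. The median of the mean ratios was 0.65 for the 6 that are no members and 0.34 for all listed. Like the members, AT5G01870, AT3G18280, AT1G62790 and the shared probe set are listed with EBR at least 2-fold higher at a stage. The share and the median therefore largely restate that selection. CWLP and DIR1, listed in no EBR to control comparison, went opposite ways, above and below control at every stage.

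With heat the 6 probe sets that are no members were also lower. Below their own 0 h level were 6 of 6 in control after 1 h (57.1% of all listed probe sets) and after 3 h (55.4%). In EBR they were 6 of 6 after 1 h (58.6%) and after 3 h (57.8%). At least 2-fold lower were 3 and 6 of the 6 in control after 1 h and 3 h, and 4 and 5 in EBR. AT1G62790 had log2 changes after 1 h and 3 h of -1.67 and -1.68 in control and -2.83 and -2.96 in EBR. AT3G18280 had -1.64 and -2.29 in control and -1.77 and -2.41 in EBR. DIR1 had -1.06 and -1.33 in control, and -0.97 and -1.08 in EBR, so it was lower with heat while its EBR to control ratio was below 0. CWLP and DIR1 are listed in no EBR to control comparison, and their control changes after 3 h, -1.02 and -1.33, pass 2-fold. They may have been listed for a heat change, so their lower levels may follow from that selection. EARLI1 in EBR after 3 h was the 1 value of the 11 probe sets that was not below 0 h.

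**Figure D4:**
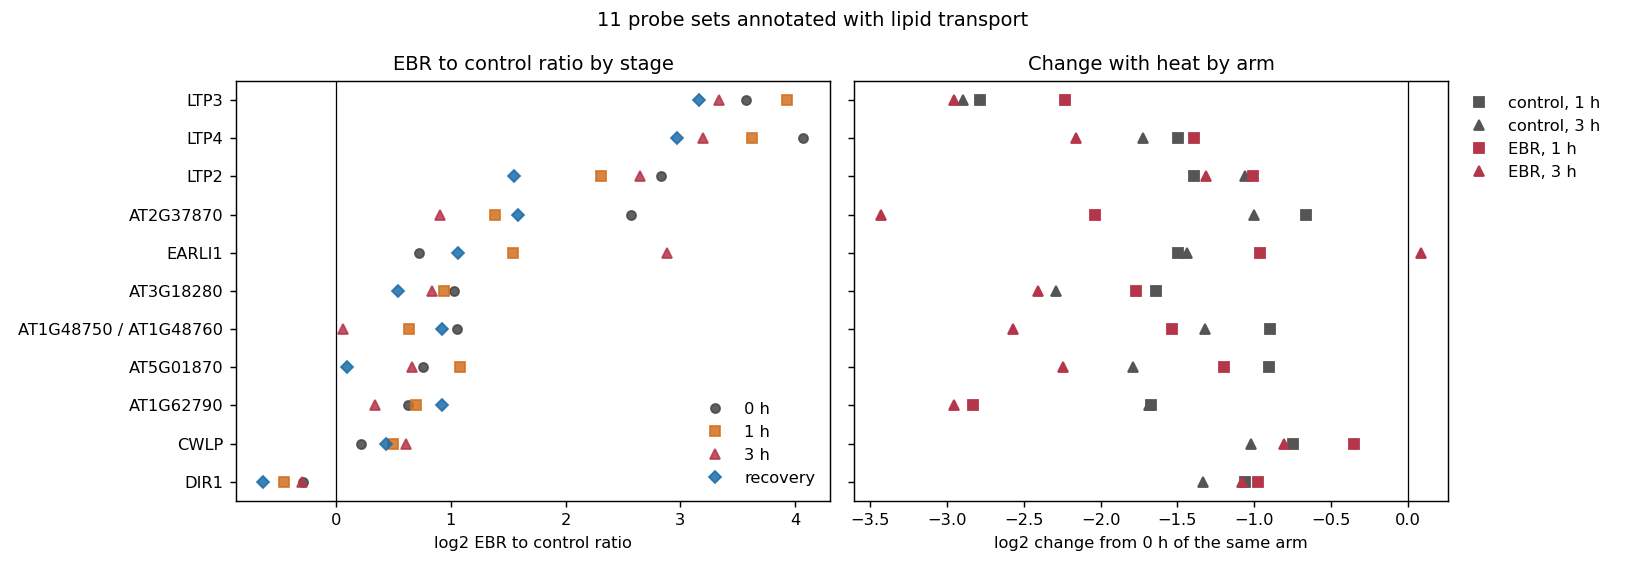
Left, log2 EBR to control ratio of 11 probe sets with the term lipid transport, 1 row each, at the 4 stages in the value table. Right, log2 change from 0 h of the same arm at 1 h and 3 h in the authors' deposited table; DIR1 alone lies left of 0 on the left side, and EARLI1 in EBR at 3 h alone lies right of 0 on the right side.

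Genes of surface lipids and of systemic immunity, the settings in which these proteins are known, were sparsely named. Of 28 cuticle lipid genes 2 were named, and both had mean ratios below 0. MYB16 (AT5G15310), a regulator of epidermal and cuticle development, averaged -0.95 ± 0.35 on the log2 scale (SD over n = 4 stages), and the wax synthesis gene CER3 (AT5G57800) -0.31 ± 0.18. Of 14 systemic immunity genes 3 were named under 1 locus. WRKY70 (AT3G56400) had 1.70 ± 0.58, CBP60G (AT5G26920) 0.48 ± 0.32 and DIR1 -0.42 ± 0.17. A probe set shared by AT1G73800 and AT1G73805 had log2 ratios between 0.19 and 1.09 over the stages. AZI1, the neighbour and close relative of EARLI1, is not among the probe sets named.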

How the data were processed

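Labelled RNA of 8 groups was hybridised to ATH1 arrays. MAS5 and GCRMA appear in the submitters' processing notes, with no role or version; no source used here states how replicates were combined.

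The deposited value table holds a linear ratio per probe set and sample. Its control columns never exceed 1 (medians 0.998 to 0.999), so values were taken as relative to control at that stage. An approximate control SD was derived from geometric over arithmetic means. For large SDs, as in LTP3 and LTP4, this expansion is rough.

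The authors' deposited tables give folds, mean signals (intensity) and normalized log2 means. Per the file headers, their selection was by 2-way ANOVA (treatment, corrected p up to 0.05) and a 2-fold limit. Normalized values of shared probe sets were equal between tables.

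With Python 3.11.15, numpy 2.4.6 and pandas 2.3.3, log2 ratios, counts past 2-fold and pattern distances were computed without the 11 array control probe sets, and tested on simulated data. No hypothesis test was run. Alternatives were another scaling, source, threshold, left-out stage and likeness measure.

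Members and lists were chosen with earlier results of these data known. The named genes are the members, the 3 genes nearest to each, relatives in the authors' tables and up to 4 genes of each list. Symbols come from RefSeq (TAIR10.1), where all 5 members matched. The files name no build, so no coordinates are given, and protein identity and promoter motifs were not analysed here.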

Additional observations from a re-analysis of the deposited data

Results flagged for a closer look

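Between 0 h and 3 h the authors' normalized log2 means of EARLI1 changed by -1.44 in control and 0.089 in EBR. By mean signals the EBR change was 0.0079, so EARLI1 was lower in control and almost unchanged in EBR. The heat change of LTP2 between 1 h and 3 h had opposite signs in the 2 arms, at 0.33 in control and -0.31 in EBR. Each rests on 1 deposited mean per condition, and neither difference was tested.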

How the results depend on the processing

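No paired analysis was possible because each group has 1 deposited sample and replicate arrays were not used here. Median centring changed no member's ratio by its SD over stages, and leaving out any stage left every mean within that SD. By the authors' mean signals, LTP4 had log2 ratios of 2.61, 2.88 and 1.23 at 0 h, 1 h and 3 h, LTP3 2.41, 2.67 and 1.93, LTP2 3.37 at 1 h, and AT2G37870 3.32 and 2.13 at 0 h and 1 h. By their normalized log2 means, LTP3 had 3.21 at 0 h, LTP2 3.43 at 1 h and AT2G37870 3.40 at 0 h. The EBR column by itself, an alternative added after seeing the data, gave LTP3 3.19, 3.12, 2.98 and 2.35 over the stages. Dividing by the control column had been listed as the alternative, but was taken for all values above. Quantile normalization gave LTP3 3.80 at recovery and 40 probe sets at least 2-fold lower there, against 83. With mean signals the control heat change of LTP3 was -2.31 at 1 h and -2.55 at 3 h, and that of LTP4 -0.88 at 3 h. For EBR at 1 h and 3 h against the 0 h control, also added after seeing the data, mean signals gave LTP4 1.60 and 0.36 and LTP3 0.36 and -0.61, the last a reversal. The control change from 1 h to 3 h reversed, to 0.41 for LTP4 and -0.039 for EARLI1. Of the probe sets with signals at both times, the sole ones for which this can be computed, 1 was at least 2-fold higher at 3 h than at 1 h in control, against 0. At 1.5-fold, 679, 555, 678 and 577 probe sets were higher with EBR at the stages in order and 263, 348, 274 and 494 lower. At 3-fold, 48, 38, 48 and 13 were higher and 9, 3, 5 and 9 lower. Ranking by Pearson's r shared 1 of 3 nearest genes for LTP4, LTP2 and EARLI1, and 0 for LTP3 and AT2G37870. The cause of these differences was not tested.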
